A study of Mus musculus with 9 samples.

Results

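The 40 genes described here encode the working parts of the lysosome: its proteases, its sugar- and lipid-cleaving enzymes, their soluble helpers, the proteins of its membrane, the pump that acidifies it, and a pair of transcription factors that switch many of these genes on. They were chosen as a list of names by function, at a time when earlier results of these data were known, and no measured value entered the rule. All 40 were among the 22136 genes of the deposited tables. The gene test kept 39 of them. Gla, encoding alpha-galactosidase A, was listed at 0 counts in all 9 libraries and was not tested.

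Lysosomes are acidic compartments in which cells take apart proteins, glycans and lipids. The vacuolar ATPase, a rotary pump with a membrane sector (V0) and a cytosolic sector (V1), drives protons into them, and most of the enzymes work only at the resulting low pH. In immune cells the same enzymes cut antigens for display on MHC class II and activate the proteases stored in killer-cell granules, and phagocytes carry them in quantity. Many lysosomal genes share a promoter element, the CLEAR palindrome TCACGTGA, which is bound by TFEB, TFE3 and their relatives.

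The RNA came from CD45+ immune cells sorted out of skin tumours that YUMM 2.1 mouse melanoma cells had formed under the skin of immunocompetent C57BL/6J mice. Once tumours measured 20 to 50 mm3, mice were given IgG (the isotype control), an antibody to the B7-family surface protein B7-H3, or an antibody to PD1, a receptor that restrains T cells. Each of these 3 groups had 3 libraries of bulk RNA, and all groups shared the tumour line, the mouse strain and the sort. A combined treatment that the design text mentions was not analysed here. The labels do not say that libraries of a group came from separate mice, so p-values measure the spread between these libraries, which may be partly technical. Because the libraries are bulk, a change in the number of cells of a type and a change in the RNA each cell holds cannot be told apart.

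Library totals were 18474479, 14487012 and 20477257 estimated counts in the controls, 15091916, 29353809 and 31533106 with anti-B7-H3, and 30119530, 28124402 and 24257522 with anti-PD1. The controls were thus shallower than every treated library except anti-B7-H3 1. At these totals 3 counts, taken as the floor of detection, equalled between 0.0925 and 0.223 CPM (counts relative to the TMM-scaled library size). IgG control 2 stood apart on the first principal component and had 1896 of the 13178 tested genes at 0. Anti-PD1 3 stood apart on the next component and had 1248 at 0, against 224 to 822 in the other 7 libraries. Ptprc, which encodes CD45, lay between 1718 and 2913 CPM in every library. The summed markers of melanoma cells reached at most 11.4 CPM, with Dct at 0 everywhere.

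Both antibodies were accompanied by more lysosomal RNA. The 40 genes together held 5485, 5278 and 5757 CPM in the IgG control libraries, 8424, 8610 and 7798 CPM with anti-B7-H3, and 8147, 7820 and 6907 CPM with anti-PD1. Every treated library lay above every control library. The ratio of the group means was 1.50 for anti-B7-H3 and 1.38 for anti-PD1. Both treated groups are set against the same 3 control libraries.

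The macrophage markers, a list of 13 genes with none at 0 throughout, moved with these sums. They totalled 286, 108 and 302 CPM in the controls, 2886, 1928 and 1866 CPM with anti-B7-H3, and 2193, 2148 and 1708 CPM with anti-PD1. The lysosomal sum was thus 19.0 to 48.8 times the macrophage sum in the controls and 2.92 to 4.47 times in the treated libraries. The summed markers of neutrophils were between 62.5 and 99.0 CPM in the controls, 228 and 420 CPM with anti-B7-H3, and 597 and 881 CPM with anti-PD1. T cell markers, at 6906 to 9462 CPM in the controls, were at 5526 to 8069 CPM in the anti-B7-H3 libraries and 5692 to 7302 CPM in the anti-PD1 libraries. Dendritic cell markers were at 154 to 316 CPM in the controls, and at 298 to 554 CPM and 303 to 432 CPM under the 2 antibodies. NK cell markers were at 677 to 2091 CPM in the controls, 1797 to 2539 CPM with anti-B7-H3, and 1535 to 1998 CPM with anti-PD1. B cell markers were at 25.9 to 85.1 CPM in the controls, 53.7 to 471 CPM with anti-B7-H3, and 47.2 to 137 CPM with anti-PD1. The value of 471 CPM was that of anti-B7-H3 1. Fibroblast markers, at most 1.45 CPM in the controls, lay between 8.42 and 29.7 CPM in the treated libraries. The part of these cell types in the lysosomal values was not tested.

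**Figure D1:**
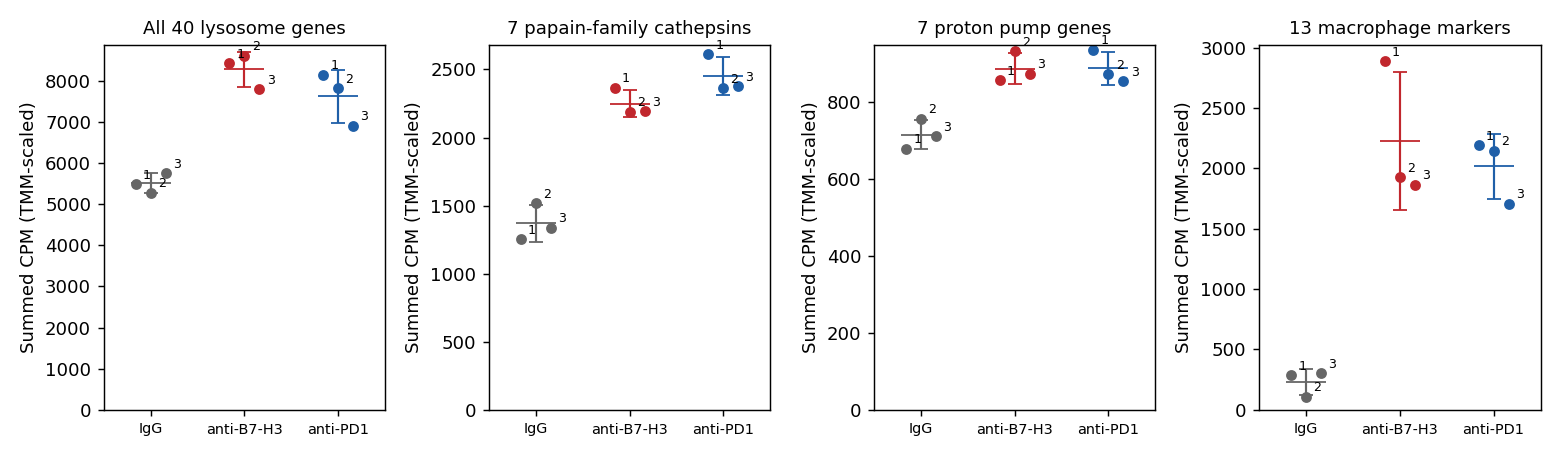
Summed CPM per library (y axis from 0) for all 40 lysosome genes, the 7 papain-family cathepsins, the 7 proton pump genes and 13 macrophage markers. Points are libraries with their replicate numbers, and bars are the mean ± SD of 3. In each panel the treated libraries lie above the controls, with a ratio of means of 1.50 and 1.38 for all lysosome genes and of 9.59 and 8.69 for the macrophage markers.

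Gene by gene, the increase passed the test in few members. Against IgG, 4 of the 39 tested genes rose with anti-B7-H3 (Ctsh, Ctsl, Ctsc and Grn) and 5 rose with anti-PD1 (Ctsl, Ctsh, Lgmn, Ctsc and Ctsz), at a Benjamini-Hochberg adjusted p of at most 0.05 from edgeR over all 13178 tested genes. Of all tested genes, 0.827% rose in the former comparison and 1.72% in the latter. No member fell in either comparison by edgeR or by DESeq2, and none with a negative fold change had an unadjusted edgeR p under 0.05. Of all tested genes, 0.0228% and 0.0152% were called lower. DESeq2 called 9 members higher in each comparison, beside 2.85% and 4.77% of the genes to which it gave an adjusted p. An unadjusted edgeR p under 0.05 was reached by 13 members with anti-B7-H3 and by 10 after anti-PD1, beside 8.81% and 10.9% of all tested genes.

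The smaller differences mostly pointed the same way. A positive fold change was fitted for 36 of 39 members with anti-B7-H3 and for 33 after anti-PD1, beside 52.1% and 47.2% of all tested genes. The 36 include Ctsk, whose few counts gave a log2 value of 0.002. The median log2 fold change of the members was 0.33 and 0.31, and that of all tested genes was 0.02 and -0.04. In 15 of 39 members all 3 anti-B7-H3 libraries lay above all 3 controls, and the same number did so with anti-PD1, beside 9.96% and 9.99% of all genes. In no member did all treated libraries lie below the controls, beside 5.49% and 6.52% of all genes.

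**Figure D2:**
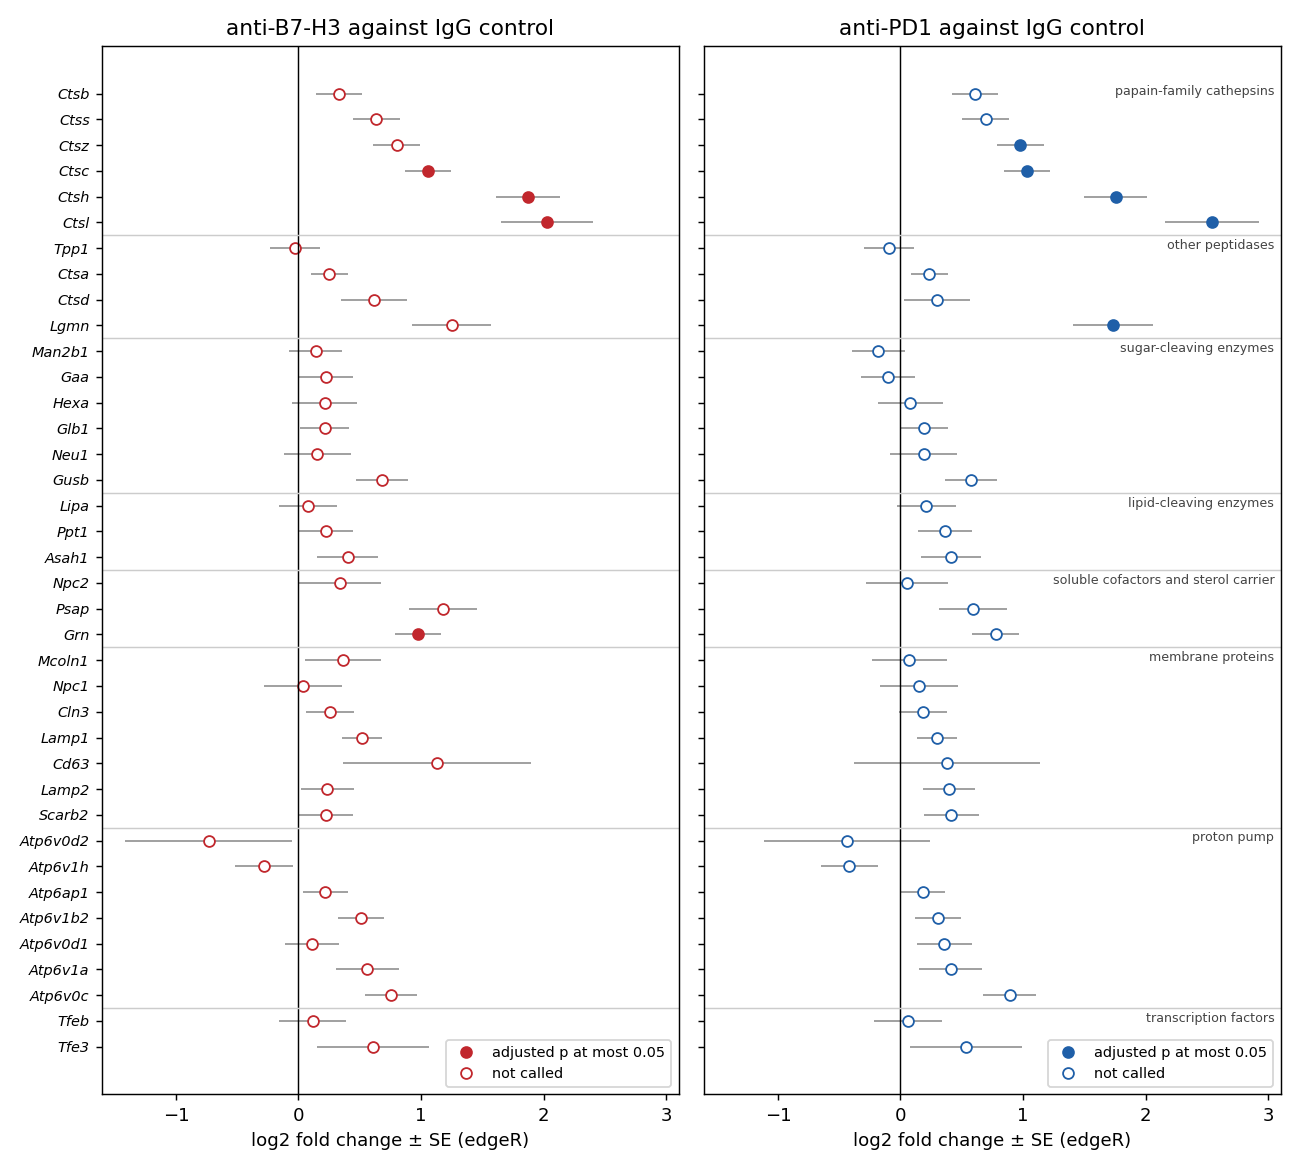
Log2 fold change ± SE from edgeR against IgG control for 38 lysosome genes, by role, for anti-B7-H3 (left) and anti-PD1 (right). Filled symbols passed the test (adjusted p at most 0.05), open ones did not, and Ctsk and Gla, with few or no counts, are not drawn. The filled symbols are 3 and 4 papain-family cathepsins, with Grn on the left and Lgmn on the right.

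The papain-family cathepsins, cysteine proteases that cut proteins at acid pH, held most of the calls. Of 7 such genes, 3 rose with anti-B7-H3 and 4 after anti-PD1. Their summed level was 1253, 1518 and 1339 CPM in the controls, 2366, 2190 and 2192 CPM with anti-B7-H3, and 2613, 2363 and 2378 CPM with anti-PD1. They made up 22.8% to 28.8% of the lysosomal CPM in the controls. The share was 25.4% to 28.1% in the anti-B7-H3 libraries and 30.2% to 34.4% in the anti-PD1 libraries, so it overlapped between IgG and anti-B7-H3 and did not between IgG and anti-PD1.

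Ctsh (ENSMUSG00000032359, GRCm38 chromosome 9, 90054152 to 90076089) encodes cathepsin H, mainly an aminopeptidase. Its level was 32.7, 45.2 and 32.2 CPM in the controls, 184, 104 and 115 CPM with anti-B7-H3, and 136, 129 and 107 CPM with anti-PD1. The lowest treated library was above 2 times the highest control, and anti-B7-H3 1 was the highest of all. The log2 fold change was 1.87 ± 0.26 with anti-B7-H3 (edgeR adjusted p = 0.0066) and 1.76 ± 0.26 with anti-PD1 (edgeR adjusted p = 0.00608). The anti-B7-H3 call was lost in a fit without the anti-PD1 libraries (edgeR adjusted p = 0.0502), and the anti-PD1 call was kept under all 20 other settings tried.

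Ctsl (ENSMUSG00000021477, chromosome 13, 64359337 to 64370890) encodes cathepsin L, an endopeptidase of the lysosome that also acts on the MHC class II invariant chain in some cells. It stood at 13.6, 5.20 and 15.7 CPM in the controls, 55.6, 45.9 and 39.3 CPM with anti-B7-H3, and 76.1, 71.7 and 53.5 CPM with anti-PD1. All 6 treated libraries lay above the controls, and the groups of treated libraries overlapped each other only through anti-PD1 3 and anti-B7-H3 1. The log2 fold change was 2.03 ± 0.38 and 2.54 ± 0.38 (edgeR adjusted p = 0.0318 and 0.00689). The call with anti-PD1 was made under all 20 other settings, while the call with anti-B7-H3 was made under 10. It was lost without IgG control 1 or without any 1 of the anti-B7-H3 or anti-PD1 libraries, and in the fit of 6 libraries (edgeR adjusted p up to 0.155).

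Ctsc (ENSMUSG00000030560, chromosome 7, 88278085 to 88310888) encodes dipeptidyl peptidase 1, which activates granzymes and the serine proteases of neutrophils. Its values were 244, 234 and 184 CPM in the controls, 487, 411 and 477 CPM with anti-B7-H3, and 515, 440 and 399 CPM with anti-PD1. The treated groups lay over each other and clear of the controls. It rose by 1.06 ± 0.19 with anti-B7-H3 and by 1.03 ± 0.19 after anti-PD1 on the log2 scale (edgeR adjusted p = 0.0264 and 0.0198). The anti-B7-H3 call held under 11 of 20 other settings and was lost without IgG control 3, any anti-B7-H3 library, or anti-PD1 1 or 2 (edgeR adjusted p up to 0.117). The anti-PD1 call held under 16 and was lost without anti-PD1 1 or 2 (edgeR adjusted p up to 0.108).

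Ctsz (ENSMUSG00000016256, chromosome 2, 174427493 to 174439039) encodes cathepsin Z, a carboxypeptidase. It was at 157, 233 and 214 CPM in the controls, 343, 363 and 343 CPM with anti-B7-H3, and 438, 412 and 339 CPM with anti-PD1. Both treated groups were above all controls. With anti-PD1 the log2 difference of 0.98 ± 0.19 passed the test (edgeR adjusted p = 0.03, called under 12 of 20 other settings), and with anti-B7-H3 the value of 0.80 ± 0.19 did not (edgeR adjusted p = 0.132), although DESeq2 and limma-voom called it (adjusted p = 0.00886 and 0.0385). The anti-PD1 call was lost without IgG control 1 or 3, anti-B7-H3 2 or 3, or anti-PD1 1 or 2 (edgeR adjusted p up to 0.144). The gene span of Ctsz overlaps that of Nelfcd. Since strand is not marked by these library kits, reads from any sequence that overlapping genes share cannot be separated with certainty. The same holds for Grn with Fam171a2, and for uncalled members such as Ctsa, Ctsb, Ctsd and Lamp1, whose spans also overlap other genes. Only spans were compared, and whether exons overlap was not checked.

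The other 3 cathepsins of the family did not pass the edgeR test, while DESeq2 called 2 of them. Ctss, encoding the protease that trims the invariant chain in antigen-presenting cells, was at 366, 476 and 456 CPM in the controls, 806, 576 and 633 CPM with anti-B7-H3, and 696, 685 and 722 CPM with anti-PD1. Its treated libraries were all above the controls, with log2 differences of 0.63 and 0.70 (edgeR adjusted p = 0.276 and 0.123, DESeq2 adjusted p = 0.0482 and 0.00735). Ctsb, encoding the abundant cathepsin B, was at 438, 525 and 437 CPM in the controls, 491, 688 and 584 CPM with anti-B7-H3, and 752, 624 and 758 CPM with anti-PD1 (log2 differences 0.33 and 0.61, edgeR adjusted p = 0.699 and 0.205). DESeq2 called Ctsb with anti-PD1 (adjusted p = 0.0285).

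Ctsk, encoding the collagenase of bone-resorbing osteoclasts, had 35, 0 and 0 counts in the controls, 9, 18 and 16 counts with anti-B7-H3, and 0, 2 and 0 counts with anti-PD1. At these counts no fold is given. The 3 osteoclast markers Calcr, Dcstamp and Ocstamp summed to at most 5.21 CPM in the controls and to between 20.8 and 27.6 CPM in the treated libraries.

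**Figure D3:**
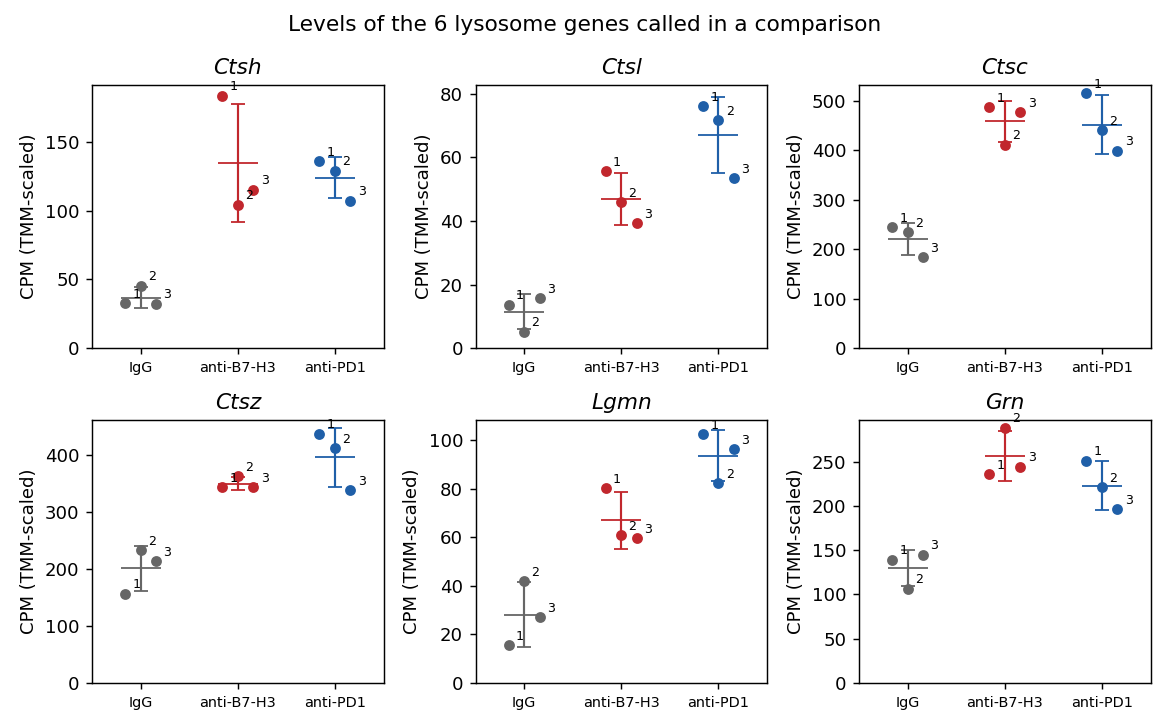
CPM per library (linear y axis from 0) of the 6 lysosome genes that passed the test in either comparison. Points are libraries with their replicate numbers, and bars are the mean ± SD of 3. For all 6 genes every treated library lies above every IgG control library, and Ctsl has its lowest value, 5.20 CPM, in IgG control 2.

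Among the 4 other peptidases, Lgmn passed the edgeR test with anti-PD1 and not with anti-B7-H3, and the other 3 passed in neither comparison. It encodes legumain, which cuts after asparagine and matures several cathepsins (ENSMUSG00000021190, chromosome 12, 102394084 to 102439813). Its level was 15.5, 42.0 and 26.9 CPM in the controls, 80.2, 60.9 and 59.5 CPM with anti-B7-H3, and 102, 82.1 and 96.3 CPM with anti-PD1. Here the 3 groups did not overlap at all, with anti-PD1 highest. The log2 fold change was 1.73 ± 0.33 with anti-PD1 (edgeR adjusted p = 0.0234, called under 14 of 20 other settings) and 1.25 ± 0.32 with anti-B7-H3 (edgeR adjusted p = 0.167, DESeq2 adjusted p = 0.023). Without IgG control 2, the highest control, the anti-B7-H3 difference was 1.67 and passed as well (edgeR adjusted p = 0.0177). The anti-PD1 call was lost without IgG control 3 or any anti-PD1 library (edgeR adjusted p up to 0.097). The difference between the antibodies, -0.48 ± 0.32 for anti-B7-H3 against anti-PD1, did not pass.

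Ctsd, encoding the aspartic protease cathepsin D, was at 830, 490 and 912 CPM in the controls, 858, 1387 and 1174 CPM with anti-B7-H3, and 1009, 983 and 754 CPM with anti-PD1, with the groups overlapping. Ctsa, encoding the carboxypeptidase that shields the sialidase Neu1 and the galactosidase Glb1 from breakdown, differed little but without overlap. It lay at 304, 321 and 331 CPM in the controls, 389, 382 and 368 CPM with anti-B7-H3, and 398, 370 and 358 CPM with anti-PD1 (log2 differences 0.25 and 0.24). Tpp1, which removes tripeptides from the ends of proteins, was between 88.7 and 134 CPM in all 9 libraries, and its log2 differences were -0.03 and -0.10. None of these 3 passed (edgeR adjusted p from 0.544 to 0.991).

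Of the 7 sugar-cleaving enzymes, 6 were tested and none passed. Gusb, encoding beta-glucuronidase, had the smallest p. It was at 52.8, 61.7 and 43.8 CPM in the controls, 83.2, 83.5 and 86.8 CPM with anti-B7-H3, and 78.4, 94.0 and 63.2 CPM with anti-PD1. All treated libraries were above the controls, and the log2 differences of 0.68 ± 0.21 and 0.57 ± 0.21 did not pass (edgeR adjusted p = 0.321 and 0.332).

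For Gaa (which degrades glycogen), Glb1 (beta-galactosidase), Hexa (a subunit of beta-hexosaminidase A), Man2b1 (alpha-mannosidase) and Neu1 (the lysosomal sialidase), the treated libraries overlapped the controls in both comparisons. Their log2 differences ran from 0.14 to 0.23 with anti-B7-H3 and from -0.18 to 0.19 with anti-PD1. Man2b1 was the most abundant of them, at 232, 247 and 228 CPM in the controls, 291, 262 and 225 CPM with anti-B7-H3, and 232, 247 and 145 CPM with anti-PD1. Its low value in anti-PD1 3, one of the libraries that stood apart, goes with a negative difference of -0.18, which was 0.06 without that library and IgG control 2. For Gaa the difference with anti-PD1 was -0.10, and 0.10 without IgG control 2.

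The 3 lipid-cleaving enzymes did not pass either. Asah1, encoding acid ceramidase, was at 74.5, 67.2 and 44.6 CPM in the controls, 88.7, 81.4 and 76.1 CPM with anti-B7-H3, and 104, 77.6 and 65.9 CPM with anti-PD1. Lipa, encoding the acid lipase that hydrolyses cholesteryl esters, was between 32.2 and 53.3 CPM in all libraries. Ppt1, which strips palmitate from proteins, was between 63.8 and 118 CPM. Over the 3 genes the log2 differences lay between 0.08 and 0.41 in both comparisons (edgeR adjusted p of at least 0.612).

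The soluble cofactors held the remaining call. Grn (ENSMUSG00000034708, chromosome 11, 102430315 to 102437048) encodes progranulin, a secreted glycoprotein that lysosomes cut into granulins. It was at 139, 107 and 145 CPM in the controls, 236, 288 and 244 CPM with anti-B7-H3, and 251, 221 and 196 CPM with anti-PD1. All treated libraries lay above the controls. The log2 difference with anti-B7-H3, 0.98 ± 0.19, passed (edgeR adjusted p = 0.0409), and that with anti-PD1, 0.78 ± 0.19, did not (edgeR adjusted p = 0.0793, DESeq2 adjusted p = 0.00179). The anti-B7-H3 call was the least steady of those made: it held under 8 of 20 other settings and was lost without any 1 of the 9 libraries (edgeR adjusted p up to 0.226).

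Psap, encoding the precursor of the saposins that present sphingolipids to their hydrolases, was at 580, 359 and 493 CPM in the controls, 1531, 873 and 839 CPM with anti-B7-H3, and 762, 818 and 582 CPM with anti-PD1. Anti-B7-H3 1 stood well above its 2 companions. The log2 difference was 1.18 ± 0.28 with anti-B7-H3 and 0.59 ± 0.28 after anti-PD1 (edgeR adjusted p = 0.119 and 0.475). With anti-B7-H3, Psap was called by DESeq2 and by edgeR without the filter on low counts (adjusted p = 0.00234 and 0.027). Npc2, which hands cholesterol to Npc1, was at 108, 85.3 and 226 CPM in the controls and between 135 and 232 CPM in the treated libraries, so its groups overlapped.

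None of the 7 membrane proteins passed. Lamp1, an abundant glycoprotein that lines the lysosomal membrane and reaches the surface of killer cells that have degranulated, was at 221, 265 and 247 CPM in the controls, 380, 335 and 335 CPM with anti-B7-H3, and 332, 279 and 290 CPM with anti-PD1. These 3 groups did not overlap, with anti-B7-H3 highest, and the log2 differences against IgG were 0.52 ± 0.17 and 0.30 ± 0.17 (edgeR adjusted p = 0.333 and 0.566). Lamp2, its relative, which also serves chaperone-mediated autophagy, was at 107, 118 and 73.3 CPM in the controls, 97.4, 128 and 127 CPM with anti-B7-H3, and 135, 124 and 135 CPM with anti-PD1.

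Cd63, a tetraspanin of late endosomes and secretory granules, varied more between libraries than between groups: 143, 59.9 and 181 CPM in the controls, 74.1, 546 and 221 CPM with anti-B7-H3, and 149, 278 and 73.6 CPM with anti-PD1. Cln3, whose loss causes juvenile Batten disease, lay between 59.1 and 89.7 CPM everywhere. Scarb2, the carrier of glucocerebrosidase, lay between 47.5 and 84.0 CPM, and the calcium channel gene Mcoln1 between 24.7 and 62.6 CPM. Npc1, encoding the membrane protein that moves cholesterol out of the lysosome, lay between 16.8 and 33.8 CPM. Over these 5 genes the log2 differences from IgG ran from 0.04 to 1.13, the highest being that of Cd63 with anti-B7-H3, whose SE was 0.77.

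Because the deposited values are per transcript, the splice forms of Lamp2 could be set side by side. The gene has 3 annotated transcripts with coding sequence that share a 5′ end and differ in the last exon, which encodes the membrane anchor and the cytosolic tail. Lamp2-202 took 54.0%, 54.5% and 53.0% of the Lamp2 counts in the controls, 60.5%, 56.4% and 59.6% with anti-B7-H3, and 57.9%, 46.8% and 45.3% with anti-PD1. Nearly all other counts fell on Lamp2-201, and the remaining transcript took at most 2.45%. The anti-B7-H3 libraries were all above the controls, while anti-PD1 2 and 3 were below them and anti-PD1 1 above. The Wilson 95% interval of a single library was 51.9% to 56.1% in IgG control 1 and 57.8% to 63.1% in anti-B7-H3 1. It takes estimated counts as if each read had been seen to come from a single transcript. Reads from the shared sequence are split by estimation, and the interval leaves out that error, so it is too narrow to separate libraries. Differences in these shares were not tested.

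No proton pump gene passed the edgeR test. The 7 subunit genes together stood at 679, 756 and 712 CPM in the controls, 856, 932 and 873 CPM with anti-B7-H3, and 936, 872 and 854 CPM with anti-PD1, a ratio of means of 1.24 for both antibodies. The sum did not overlap with the controls, but much of the excess lay in 1 gene. Atp6v0c, encoding the proteolipid of the rotating ring of V0, was at 128, 133 and 209 CPM in the controls, 282, 275 and 237 CPM with anti-B7-H3, and 317, 278 and 278 CPM with anti-PD1. Its log2 differences were 0.76 ± 0.21 and 0.89 ± 0.21 (edgeR adjusted p = 0.236 and 0.0723), and both passed without IgG control 3, its highest control (edgeR adjusted p = 0.0349 and 0.0138). DESeq2 called Atp6v0c in both comparisons (adjusted p = 0.038 and 0.00223), and limma-voom with anti-PD1 (adjusted p = 0.0416).

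The V1 genes did not move together. Atp6v1a, encoding the catalytic subunit, was at 61.6, 43.6 and 36.9 CPM in the controls, 63.6, 67.8 and 77.9 CPM with anti-B7-H3, and 63.0, 78.1 and 47.9 CPM with anti-PD1. Atp6v1b2, encoding its nucleotide-binding partner, was at 87.7, 69.8 and 67.6 CPM in the controls, 116, 109 and 95.7 CPM with anti-B7-H3, and 101, 92.8 and 84.3 CPM with anti-PD1. Atp6v1h, encoding a regulatory subunit of V1, had negative log2 differences of -0.28 and -0.42, with 135, 214 and 124 CPM in the controls and 101 to 142 CPM in the treated libraries, which overlapped. Without IgG control 2 they were 0.02 and -0.11.

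Atp6v0d1 and Atp6v0d2 encode alternative forms of the subunit that joins the sectors, the d2 form being the one of osteoclasts and some macrophages. Atp6v0d1 lay between 49.4 and 81.0 CPM in all libraries. Atp6v0d2 was at 6.62, 8.11 and 4.25 CPM in the controls, 5.94, 1.55 and 3.98 CPM with anti-B7-H3, and 3.47, 5.21 and 5.35 CPM with anti-PD1, and so was not higher where the macrophage and osteoclast markers were. Atp6ap1, an accessory protein of V0, lay between 197 and 276 CPM. Over the 7 pump genes the edgeR adjusted p was at least 0.236 with anti-B7-H3 and at least 0.0723 with anti-PD1.

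For both of the 2 transcription factors the libraries of the groups overlapped. Tfeb was at 31.8, 41.6 and 41.8 CPM in the controls, 27.1, 51.9 and 45.7 CPM with anti-B7-H3, and 38.2, 36.2 and 45.9 CPM with anti-PD1. Tfe3 was at 33.0, 7.55 and 32.4 CPM in the controls, 34.0, 31.5 and 45.7 CPM with anti-B7-H3, and 41.0, 36.9 and 27.7 CPM with anti-PD1. The low value of Tfe3 was that of IgG control 2. Log2 differences ran from 0.06 to 0.61 and none passed (edgeR adjusted p of at least 0.757). Those of Tfe3 were 0.61 ± 0.46 and 0.53 ± 0.46, so differences of this size stay unresolved. TFEB and TFE3 are controlled largely by phosphorylation and nuclear entry, which RNA levels do not report.

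Promoters were read for the CLEAR palindrome because many lysosomal genes are known to carry it. The members were chosen as lysosomal genes, so a high share among them is no independent result. The RefSeq table on GRCm38.p6 held a window, from 250 bases before to 50 bases after an annotated start, for 33 of the 40 members. The letters TCACGTGA, the same on both strands, were in a window of 7 members (21.2%), against 1.12% of all 27025 genes with a window and 2.17% of the 10091 tested genes with one. The inner letters CACGTG, which every such palindrome holds, were in 12 members (36.4%), against 8.09% of all genes and 11.5% of tested genes. A match is a description of the sequence and not evidence of binding. The following 30-base stretches show matches next to or near RefSeq starts of 2 pump subunits, 2 proteases and the calcium channel, with the palindrome in capitals.
Atp6v0d1 (chr8:105566050-105566079, minus strand): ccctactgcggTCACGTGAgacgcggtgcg
Atp6v1a (chr16:44139373-44139402, minus strand): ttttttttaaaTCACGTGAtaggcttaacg
Ctsd (chr7:142387908-142387937, minus strand): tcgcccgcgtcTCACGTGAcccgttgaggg
Ctsa (chr2:164833749-164833778, plus strand): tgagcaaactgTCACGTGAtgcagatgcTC
Mcoln1 (chr8:3500462-3500491, plus strand): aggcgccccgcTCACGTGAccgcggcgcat

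In GENCODE M21 the stretches of Ctsd, Ctsa and Mcoln1 overlap an annotated exon. Whether that exon belongs to the named gene or to another was not checked. Those of the pump subunits do not, but that of Atp6v0d1 crosses the start in RefSeq, which lies a few bases ahead of the one in GENCODE. The RefSeq starts used for Atp6v1a, Ctsd, Ctsa and Mcoln1 lie 446, 211, 900 and 62 bases inside the GENCODE gene. The stretches shown for these genes thus lie inside the gene as well. The Ctsa window at the GENCODE gene start holds no match. Ctsa has a second palindrome shortly after the first, of which the closing capitals are the beginning. The other 2 members with the palindrome were Cln3 and Gla. Of these 7 genes, Gla was not tested and the others did not pass the edgeR test in either comparison. So few genes cannot show whether the palindrome goes with a call. The window of Gla holds 2 palindromes. Whether its 0 counts come from the transcript reference or from the cells is not known.

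Of the 6 called genes, Ctsh had no window in the table, and the other 5 (Ctsc, Ctsl, Ctsz, Grn and Lgmn) held no TCACGTGA. Ctsl held CACGTG once, at position -236 from its RefSeq start, and Lgmn once, at -49 from a RefSeq start. Both of these starts lie inside the GENCODE gene. The 100 bases before the starts of Ctsc and Ctsz, and the 58 bases before the first exon of Grn, are shown as examples of called genes without either set of letters. Lamp1, which was not called, is shown beside them because CACGTG (capitals) stands 4 times in its 100 bases.
Ctsc (chr7:88277985-88278084, plus strand): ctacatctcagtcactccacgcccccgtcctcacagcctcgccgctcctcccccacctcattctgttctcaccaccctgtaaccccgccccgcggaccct
Ctsz (chr2:174439040-174439139, minus strand): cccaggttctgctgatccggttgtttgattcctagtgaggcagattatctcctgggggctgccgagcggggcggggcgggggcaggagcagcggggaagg
Grn (chr11:102430257-102430314, plus strand): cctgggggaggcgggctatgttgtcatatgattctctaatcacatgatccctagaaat
Lamp1 (chr8:13159061-13159160, plus strand): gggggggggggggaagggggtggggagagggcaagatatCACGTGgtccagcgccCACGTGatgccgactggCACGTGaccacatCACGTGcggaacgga

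The absence of a match says only that these letters are not in these windows.

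Anti-B7-H3 and anti-PD1 were then set against each other. No member of 39 passed the edgeR test, and none had an unadjusted p under 0.05 or a DESeq2 call. Over all tested genes edgeR called 0.0%, with 425 genes (3.23%) at an unadjusted p under 0.05. DESeq2 called 14, of which 5 (0.0383% of those with an adjusted p) were higher with anti-B7-H3. A positive fold change for anti-B7-H3 was fitted for 24 of 39 members (53.8% of all genes), and the median was 0.05 beside 0.04 for all genes. All anti-B7-H3 libraries were above all anti-PD1 libraries in 3 members, Psap, Lamp1 and Ctsk (7.13% of all genes), and below them in 1, Lgmn (6.4% of all genes). For Ctsk this rests on 9, 18 and 16 counts against 0, 2 and 0, too few to compare. For Psap the log2 difference was 0.59 ± 0.28 and for Ctsl, with the opposite sign, -0.52 ± 0.36. The test therefore leaves differences of this size between the antibodies unresolved.

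Levels can be compared between genes only per length, in TPM (length-adjusted shares of a library's transcripts, as deposited and summed per gene). By the mean of all 9 libraries the most abundant members were Ctsd at 455 TPM, Atp6v0c at 418, Ctsb at 361 and Ctss at 361, followed by Npc2 at 282, Psap at 254 and Ctsz at 217 TPM. The order of the means differed between groups. In the controls Atp6v0c, at 279 ± 36.2 TPM, was below Ctsb at 301 ± 67.9 TPM, and with anti-PD1 it was at 506 ± 59.1 TPM, above Ctsd at 434 ± 55.1 TPM (SD, n = 3). At the other end of the means stood Npc1 at 3.65, Atp6v0d2 at 3.14 and Ctsk at 0.271 TPM. The genes called with the highest fold changes were not the most abundant ones. In the controls Ctsh averaged 26.1 TPM and Ctsl 7.62 TPM, against 375 TPM for Ctsd and 301 TPM for Ctsb.

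Beyond the members, 87 other lysosomal genes were listed by function, of which 80 were tested. Among them 1 rose with anti-B7-H3 and 2 after anti-PD1, or 1.25% and 2.5% of those tested, beside 0.827% and 1.72% of all tested genes, and 57 and 58 had positive fold changes, with medians of 0.14 in both comparisons. Plbd1, encoding a phospholipase B-like protein of lysosomes, was at 66.5, 93.0 and 49.0 CPM in the controls, 280, 176 and 246 CPM with anti-B7-H3, and 292, 336 and 187 CPM with anti-PD1. Its treated libraries were all above the controls, and it rose by 1.75 ± 0.30 and 1.97 ± 0.30 on the log2 scale (edgeR adjusted p = 0.0233 and 0.00766). The first of these calls was lost without IgG control 1 or 3 or anti-B7-H3 1 or 3, with edgeR adjusted p up to 0.0822. Scpep1, encoding a serine carboxypeptidase, rose by 1.11 ± 0.22 with anti-PD1 (edgeR adjusted p = 0.03) and differed by 0.67 ± 0.22 with anti-B7-H3 (edgeR adjusted p = 0.347). The Scpep1 call was lost without IgG control 1 or 2, anti-B7-H3 2 or 3 or any of the anti-PD1 libraries.

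Nothing else on these lists passed the edgeR test. The 14 tested pump subunits outside the members had 13 positive differences in each comparison, with medians of 0.15 and 0.17. Atp6v0b differed by 0.46 in both. Atp6v0e2 had 1, 0 and 0 counts in the controls, 8, 12 and 0 counts with anti-B7-H3, and 18, 27 and 0 counts with anti-PD1, too few to read a fold from. Of 17 other membrane proteins, Slc11a1, the metal transporter of phagocyte lysosomes, came closest, at 2.96, 9.35 and 5.08 CPM in the controls, 43.9, 37.6 and 24.0 CPM with anti-B7-H3, and 47.6, 45.7 and 9.73 CPM with anti-PD1 (log2 differences 2.60 and 2.57, edgeR adjusted p = 0.109 and 0.0671). Laptm4b, on the same list, went the other way, at 13.3, 50.0 and 11.1 CPM in the controls, 2.23, 7.51 and 9.13 CPM with anti-B7-H3, and 8.55, 12 and 10.7 CPM with anti-PD1. Its log2 differences were -1.97 and -1.25 (edgeR adjusted p = 0.364 and 0.523), and IgG control 2 held its highest value. The 10 genes that sort enzymes to lysosomes had medians of -0.06 and -0.08, with Igf2r, the mannose 6-phosphate receptor, at -0.33 and -0.76. The 6 genes that control lysosome formation had medians of 0.21 in both, with 5 and 3 positive differences. The largest were those of Mitf, from few counts in the controls. It had 1, 0 and 9 counts there, 33, 125 and 49 with anti-B7-H3, and 78, 31 and 7 with anti-PD1 (edgeR adjusted p = 0.51 and 0.537). Among 4 cystatins, inhibitors of the papain family, Cst3 differed by 0.18 with anti-B7-H3 and by 0.98 after anti-PD1 (edgeR adjusted p = 0.91 and 0.0873).

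Calls of single members depended on the libraries in the fit and on the method. Ctsh and Ctsl with anti-PD1 were called under all 20 other settings and Ctsh with anti-B7-H3 under 19, while the other 6 calls were made under 8 to 16 of them. The fold changes of the called genes kept their sign under every setting. Without the 2 libraries that stood apart, an alternative chosen after seeing the data, 3 members rose with anti-B7-H3 (Ctsh, Ctsl and Lgmn) and 5 with anti-PD1.

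**Figure D4:**
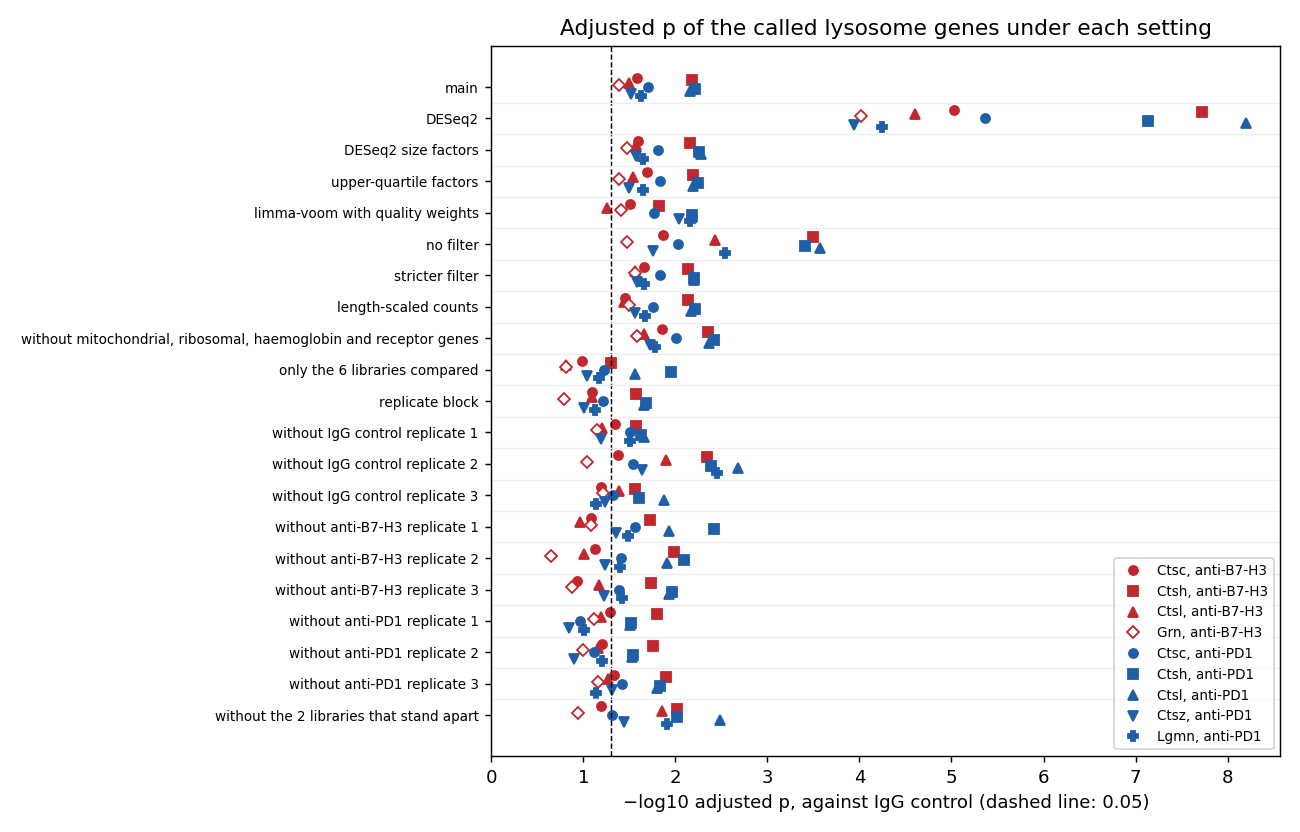
Negative log10 of the adjusted p (x axis) for each of the 9 calls made against IgG control, under the reported fit and 20 other settings (rows). Points right of the dashed line at 0.05 passed, red symbols being anti-B7-H3 and blue ones anti-PD1. Ctsh and Ctsl with anti-PD1 lie right of the line in every row, and the fit of only the 6 libraries compared leaves no red symbol to its right (Ctsh is at an adjusted p of 0.0502).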

How the data were processed

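Each deposited table covers 1 library and 58083 transcripts. Per the file headers its columns are the transcript's length and effective length, an abundance in TPM, and the estimated count. The quantifier is not given in the sources used here. Per the submitters' processing notes the build was GRCm38, with reads inspected in FastQC 0.11.8. Per the labels' protocols, RNA was amplified with SMART-Seq v4 and made into Nextera XT libraries. Lengths are mostly coding lengths, since 87.3% are multiples of 3.

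Estimated counts, deposited unrounded and without normalisation, were added up per gene with GENCODE M21, which matched 57409 transcripts, and then rounded. The deposited TPM values were summed per gene to compare levels between genes. In R 4.3.3, edgeR 4.0.16 fitted all 9 libraries together (TMM factors, filterByExpr by group, robust quasi-likelihood test), and p-values were adjusted over 13178 genes. A fold change is log2, from the fit, and CPM uses TMM-scaled library sizes. The SE was derived as the absolute fold change divided by the square root of the F statistic of the test. The fit was tested on simulated counts.

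Other settings were DESeq2 1.42.0, its size factors, upper-quartile factors, limma 3.58.1 voom with quality weights, no filter, a filter of at least 5 CPM in 3 libraries, length-scaled counts, a table without mitochondrial, ribosomal, haemoglobin and receptor genes, only the 6 libraries compared, the replicate number as a block, each library left out, and 1 added after seeing the data.

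The members and all gene lists were chosen with earlier results of these data known. All members are named. From the other lists, genes past the test are named (at most 6 a list), or the 2 with the smallest p in a list where none passed were eligible. One listed gene was not in the table. PCR reads carried no molecular identifiers, so intervals and floors cover counting error at most.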

Additional observations from a re-analysis of the deposited data

How the results depend on the processing

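Calls among the members moved with the method and with the libraries used. With anti-B7-H3 the 4 members called became 9 with DESeq2, 0 with only the 6 libraries compared and between 1 and 4 when each library in turn was left out. With anti-PD1 the 5 became 9, 2 and between 2 and 5. Over all genes the 112 calls with anti-B7-H3 became 393 with DESeq2, 44 with the 6 libraries and 59 to 144 with a library left out, and the 229 with anti-PD1 became 660, 136 and 113 to 262. Between the antibodies, DESeq2 called 14 genes, limma-voom 2, and edgeR 1 without anti-B7-H3 3 and 0 otherwise without a library, with no member among them. Of 3758 values of single genes under other settings, 3667 stayed on the same side of the threshold, 26 passed it, 65 fell short of it and none that was called changed sign. Only genes called in the reported fit could fall short, so the 65 come from far fewer values than 3758. Among values not called either way, 172 changed sign. With unscaled library sizes the summed level of the 40 genes over IgG was 1.41 for anti-B7-H3 in place of 1.50, and 1.29 for anti-PD1 in place of 1.38. With a library left out it ran from 1.47 to 1.55 (anti-B7-H3) and 1.34 to 1.45 (anti-PD1). Scaling by DESeq2's factors or by upper quartiles left 36 and 33 members positive.

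The labels number the replicates 1 to 3 in each group. Nothing in them says that the numbers pair libraries, so the numbers were not taken as pairs. Deviations from the group means had correlations from -0.12 to 0.156 between same-numbered libraries and from -0.145 to 0.123 between differently numbered ones. With 3 libraries a group, these correlations cannot exclude a pairing. With the replicate number as a block, edgeR called 1 member with anti-B7-H3 and 2 under anti-PD1, and 64 and 127 genes in all. Genes with few counts, such as Ctsk, could not be compared at this depth.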
